A study of Mus musculus with 36 samples.

Results

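The methionine and S-adenosylmethionine cycle was followed as 10 listed genes, Mat1a, Mat2a, Ahcy, Gnmt, Bhmt, Bhmt2, Cbs, Cth, Pemt and Mtr, in mouse liver. A member was measured by a probe set (a group of array probes read as a single value) that the platform annotation gives to that gene alone, and the brightest such probe set over all arrays was used. This gave values for 8 of the 10 members, out of 19938 genes with such a probe set. The probe sets that name Ahcy, which breaks down S-adenosylhomocysteine, also name another gene, and no probe set names Mat2a, so both genes are not analysed here. All 8 measured members lay above the intensity filter and were tested among 13956 genes.

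The samples were livers of C57BL/6J mice, an inbred laboratory strain, aged 16 weeks, fed ad libitum in a light cycle with 12 h of light. The chow group ate normal chow, and the other group had 10 weeks of a high fat diet with 60% of its calories from fat. Livers of each diet were taken every 4 h from ZT0 to ZT20 (Zeitgeber time, in hours after the lights came on), with 3 samples at each time and 1 array per sample, 36 in all. The labels number the samples without saying that each came from a separate animal, so a p-value here measures only how these samples spread, and the sex of the mice is not given there.

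The cycle makes the methyl donor of the cell. Methionine adenosyltransferase, of which MAT1A is the form of the adult liver, joins methionine to ATP to give S-adenosylmethionine. Methyltransferases such as GNMT and PEMT use its methyl group and leave S-adenosylhomocysteine, which is split to homocysteine and adenosine. Homocysteine is then either methylated back to methionine, by BHMT with betaine or by methionine synthase (MTR) with folate, or passed through CBS and CTH to cysteine, the transsulfuration route that feeds glutathione and taurine. The liver is the main site of these reactions in the body.

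The upstream sequences of 3 members are shown because Cbs carried the daily rhythm among the members and Bhmt and Gnmt moved in opposite directions with diet. RefSeq promoter windows (build GRCm38.p6) were found for 6 of the 8 measured members, in 7 windows, and each was searched over the 250 bases before the start site. The motifs were the E-box CACGTG, to which CLOCK and BMAL1 bind, the D-box TTATGTAA of DBP and its relatives, and AGGTCA, the core that ROR and REV-ERB proteins share with other nuclear receptors, each on both strands. None of these motifs overlap in the windows shown. In the lines that follow, each run reads 5′ to 3′ on the gene's strand and holds only bases outside the gene's annotated span, and capitals mark a motif match (TGACCT is AGGTCA on the other strand).
Cbs, chr17:31637234-31637455, minus strand: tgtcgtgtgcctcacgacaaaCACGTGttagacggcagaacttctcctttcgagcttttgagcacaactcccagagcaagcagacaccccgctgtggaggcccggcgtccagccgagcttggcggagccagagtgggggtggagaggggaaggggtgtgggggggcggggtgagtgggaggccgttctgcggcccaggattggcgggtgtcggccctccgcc
Bhmt, chr13:93637759-93638008, minus strand: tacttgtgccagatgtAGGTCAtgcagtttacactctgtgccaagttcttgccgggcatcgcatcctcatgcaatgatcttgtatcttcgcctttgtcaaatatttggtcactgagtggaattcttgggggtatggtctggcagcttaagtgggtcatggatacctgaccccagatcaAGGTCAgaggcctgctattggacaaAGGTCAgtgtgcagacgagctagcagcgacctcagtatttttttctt
Gnmt, chr17:46729212-46729415, minus strand: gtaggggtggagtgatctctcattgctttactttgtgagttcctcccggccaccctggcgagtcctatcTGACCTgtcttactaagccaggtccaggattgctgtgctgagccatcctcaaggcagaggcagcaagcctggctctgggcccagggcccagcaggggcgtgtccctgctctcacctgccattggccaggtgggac

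Cbs had an E-box at -229 to -224 from its start site, and 6.02% of all 32851 windows of this length held such a match. Bhmt had 3 copies of AGGTCA, at -234 to -229, -72 to -67 and -47 to -42. Gnmt had 1, at -181 to -176, and 14% of all windows held at least 1. The D-box was in none of the members' windows and in 0.819% of all windows. A match describes letters in a window and shows no binding. Bhmt (chromosome 13, 93616891 to 93637758) and Bhmt2 (13, 93656097 to 93674302) lie next to each other, and Mtr is on the same chromosome (12181331 to 12258199). Cbs (31612623 to 31637233) and Gnmt (46725664 to 46729211) are both on chromosome 17. Mat1a is on chromosome 14 (41105012 to 41124428), Cth on chromosome 3 (157894248 to 157925081) and Pemt on chromosome 11 (59970614 to 60046561).

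Log2 values correlated at 0.980 to 0.995 between arrays of a group, and no arrays were identical. The values are log2(intensity + 16), on which a difference understates the change of a dim gene. In 4 arrays (chow ZT4 replicate 2, chow ZT16 replicate 1, chow ZT20 replicate 3 and high fat diet ZT20 replicate 2) the quality weight that limma estimates was low, 0.265 to 0.409 where the highest was 3.61. Calls of members that change without these arrays are given both ways, as are values printed for members that move by over 1.5 times. The hepatocyte markers Alb and Apoa1 were bright on chow, with log2 values of 13.55 ± 0.10 and 13.44 ± 0.07 (SD, n = 18).

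Over the whole day, 5 of the 8 members differed between the diets at a limma adjusted p under 0.05, against a background of 21.0% of all genes tested. Mat1a, Bhmt and Mtr rose on high fat diet (background for higher genes 11.2%), and Gnmt and Cth fell (background for lower genes 9.80%). Cth, the last enzyme of transsulfuration, showed the largest difference, a fall to 0.77 of its chow level, while Mat1a, Bhmt and Mtr rose by 9.61% to 10.8% and Gnmt changed by -9.21%, all on the scale of intensity + 16. The median difference of the 8 members was -0.04 on the log2 scale, against 0.02 over all genes tested, and their median absolute difference was 0.13, against 0.06. Without the 4 arrays of low weight the number called was again 5. By mean level Mtr lay at the 63.7th percentile of genes with a single-gene probe set, and the other members at the 97.7th or above. The background was not matched for level, and the members were chosen with earlier results of these data known.

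**Figure D1:**
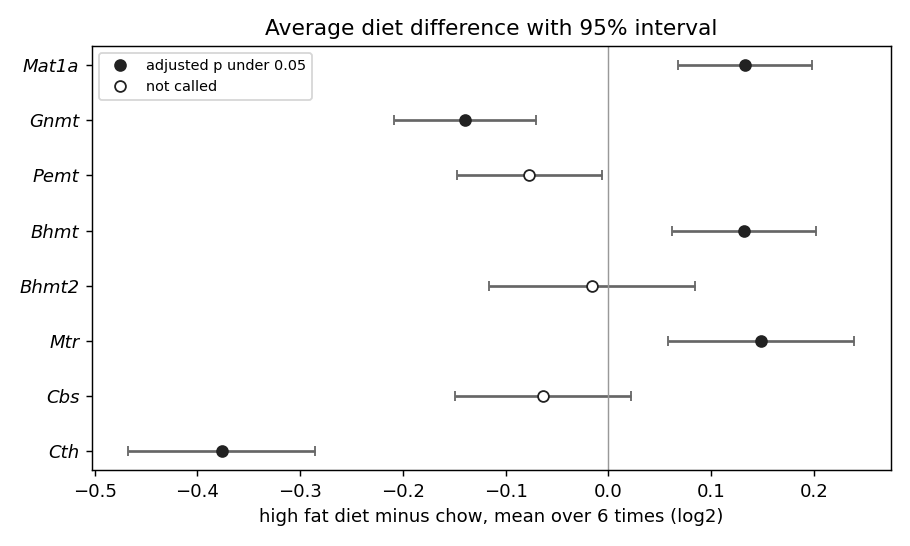
Average difference (high fat diet minus chow, log2, mean over 6 times) of the 8 measured members with 95% intervals from the fit; filled points have a limma adjusted p under 0.05. Cth lies farthest from 0 at -0.38, Mat1a, Bhmt and Mtr lie between 0.13 and 0.15, and the interval of Pemt ends just below 0 although its adjusted p was 0.12.

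Mat1a, which makes S-adenosylmethionine in hepatocytes, had log2 values on chow from 12.70 to 13.10 with a median of 12.96. On high fat diet they ran from 12.75 to 13.25 with a median of 13.07. The ranges overlap over the day, and the mean was higher on high fat diet at 6 of 6 times. The average rose by 0.13 ± 0.03 (SE), from 12.94 ± 0.09 to 13.07 ± 0.12 (SD, n = 18 each), with a limma adjusted p of 0.0026. The difference was 0.21 ± 0.08 at ZT4, 0.20 ± 0.08 at ZT12 and 0.18 ± 0.08 at ZT16, the 3 times at which the arrays of the diets did not overlap. It was between 0.05 and 0.08 at ZT0, ZT8 and ZT20, and at no single time did it pass the threshold. The ZT4 difference was 0.12 and that of ZT20 0.03 when the 4 arrays of low weight were left out. How many of all genes tested had arrays without overlap at a time was not counted. Such times therefore have no background, here or for the members below.

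Of the methyl-using members, Gnmt, the abundant liver enzyme that methylates glycine and keeps S-adenosylmethionine in check, fell on high fat diet. Its chow values ran from 12.48 to 12.84 with a median of 12.67, and its high fat diet values from 12.29 to 12.75 with a median of 12.50. The average difference was -0.14 ± 0.03 (adjusted p 0.0029), from 12.66 ± 0.10 to 12.52 ± 0.13 (SD, n = 18 each). The mean was lower at 4 of 6 times, with differences of -0.22 ± 0.08 at ZT4, -0.24 ± 0.08 at ZT8, -0.16 ± 0.08 at ZT12 and -0.28 ± 0.08 at ZT20. Arrays of the diets did not overlap at ZT8, ZT12 and ZT20. At ZT0 and ZT16 the differences were 0.03 ± 0.08 and 0.02 ± 0.08 (0.005 at ZT16 without the arrays of low weight). The F test of diet by time gave an unadjusted p of 0.043 and an adjusted p of 0.35, so a change of the difference over the day was not called.

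Pemt, which methylates phosphatidylethanolamine to phosphatidylcholine, was 12.18 ± 0.09 on chow and 12.10 ± 0.08 on high fat diet (SD, n = 18 each). Its difference of -0.08 ± 0.03 had an adjusted p of 0.12 and a 95% interval of -0.15 to -0.006. After centring each array on its median the difference was -0.09 and passed the threshold. The mean was lower at 5 of 6 times, and the arrays of the diets did not overlap at 1 time, ZT12.

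Among the members that rebuild methionine, Bhmt, which takes the methyl group from betaine, rose. Its values ran from 12.63 to 13.00 on chow, with a median of 12.88, and from 12.77 to 13.20 on high fat diet, with a median of 13.01. The average difference was 0.13 ± 0.03 (adjusted p 0.0051), from 12.87 ± 0.11 to 13.00 ± 0.11 (SD, n = 18 each), and it was positive at 5 of 6 times. At ZT8 the diets were level, with a difference of -0.01 ± 0.08, and at ZT16 and ZT20 it was 0.21 ± 0.08 and 0.20 ± 0.08. Arrays of the diets did not overlap at ZT0, ZT4 and ZT20. Bhmt alone among the members had 3 single-gene probe sets. In a fit of all 15252 single-gene probe sets above the filter, chosen after its values were seen, they gave 0.13 ± 0.03, 0.15 ± 0.04 and 0.17 ± 0.06, in order of brightness, with adjusted p of 0.0052, 0.0034 and 0.046. Over the 36 arrays the second followed the brightest at a Pearson r of 0.988 and the third at 0.559, a description of probe sets read on the same arrays. The average difference of Bhmt was 0.09 without the 4 arrays of low weight and was still called, and at ZT20, where 2 of these arrays lie, it was 0.06.

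Bhmt2, its neighbour and close relative, which methylates homocysteine from S-methylmethionine, did not pass. It was 11.39 ± 0.20 on chow and 11.38 ± 0.13 on high fat diet (SD, n = 18 each), a difference of -0.02 ± 0.05 (adjusted p 0.86, 95% interval -0.12 to 0.08). At ZT0 its 3 high fat diet values, 11.22 to 11.39, lay below its 3 chow values, 11.44 to 11.76, a difference of -0.30 ± 0.12 with an adjusted p of 0.13. Whether probes of the 2 genes read each other's transcripts was not tested.

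Mtr, methionine synthase, which uses methyl-folate and vitamin B12, rose by 0.15 ± 0.04 (adjusted p 0.016), from 7.61 ± 0.17 to 7.75 ± 0.12 (SD, n = 18 each). Its values ran from 7.25 to 7.89 on chow and from 7.57 to 8.03 on high fat diet, with medians of 7.64 and 7.73. The mean was higher at 5 of 6 times, by 0.28 ± 0.11 at ZT0 and 0.27 ± 0.11 at ZT16, and at ZT8 the difference was -0.15 ± 0.11. Arrays of the diets did not overlap at 1 time, ZT4. At an adjusted p under 0.01 this call was lost, while those of Mat1a, Bhmt, Gnmt and Cth held.

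**Figure D2:**
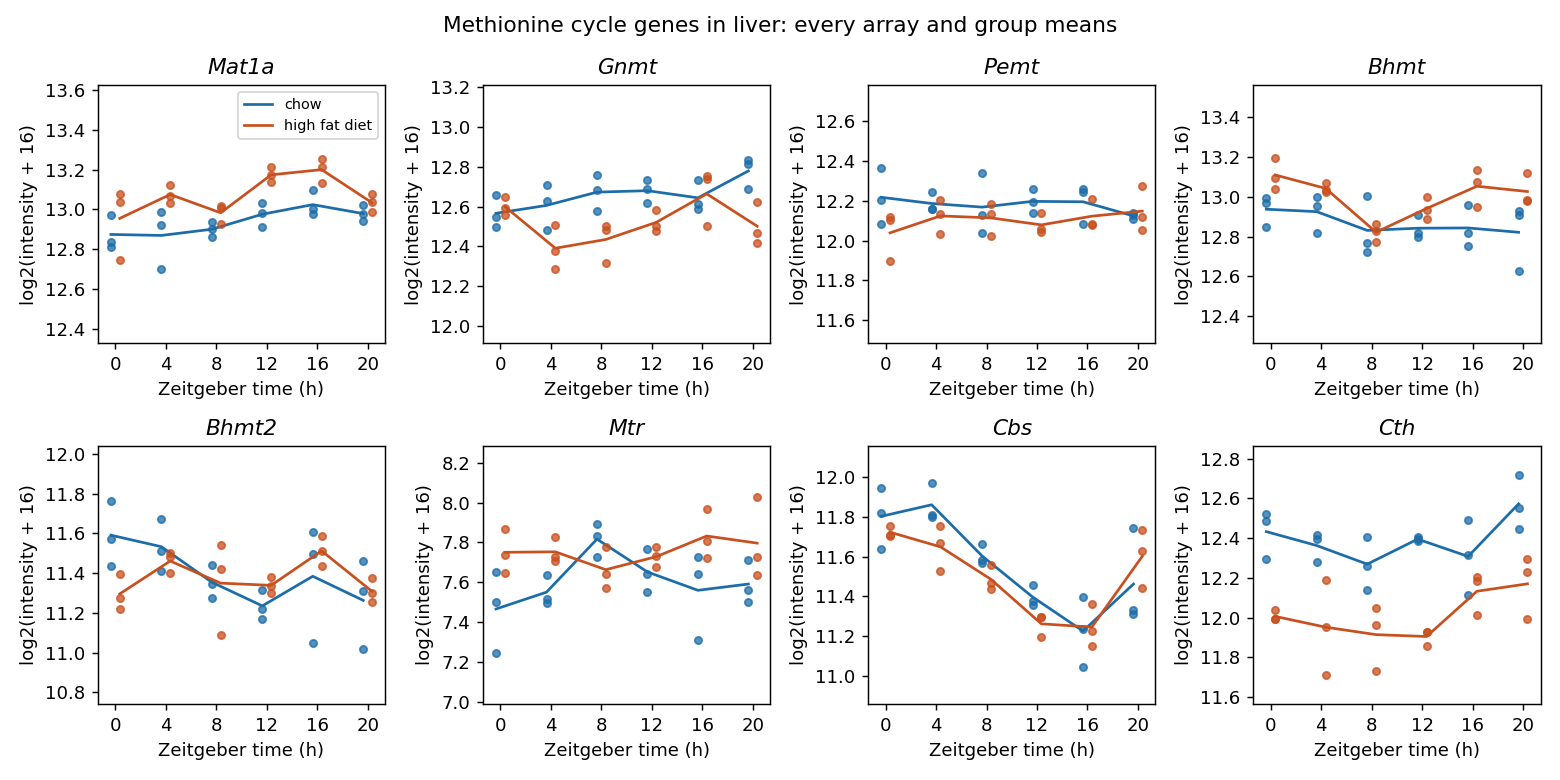
Level of the 8 measured members, log2(intensity + 16), against Zeitgeber time in h for chow (blue) and high fat diet (orange); points are the 3 arrays of each group, lines join group means, and every panel spans the same number of log2 units. The curves of Cth stay apart over the day, those of Cbs fall together from the early light phase to ZT16, and those of Pemt are nearly flat.

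The transsulfuration members differed in what they showed: Cth fell with diet and Cbs followed the time of day. Cth, cystathionine gamma-lyase, releases cysteine from cystathionine. On chow its 3 arrays read 12.52, 12.48 and 12.29 at ZT0, 12.42, 12.39 and 12.28 at ZT4, and 12.26, 12.41 and 12.14 at ZT8. They read 12.41, 12.40 and 12.38 at ZT12, 12.11, 12.49 and 12.32 at ZT16, and 12.45, 12.55 and 12.72 at ZT20. The chow mean was thus highest at ZT20, 12.57 ± 0.14, and lowest at ZT8, 12.27 ± 0.13 (SD, n = 3).

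On high fat diet Cth read 11.99, 12.04 and 11.99 at ZT0, 11.71, 12.19 and 11.95 at ZT4, and 12.05, 11.96 and 11.73 at ZT8. It read 11.93, 11.93 and 11.86 at ZT12, 12.01, 12.18 and 12.20 at ZT16, and 12.29, 12.23 and 11.99 at ZT20. Every high fat diet array lay below every chow array of its time at 5 of 6 times, and at ZT16 the lowest chow array lay among the high fat diet arrays. That chow array, replicate 1, is among the 4 of low weight. The share of all genes tested with such a separation was not counted.

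The average difference of Cth was -0.38 ± 0.04 (limma adjusted p 1.82e-07, 95% interval -0.47 to -0.29), from 12.39 ± 0.14 to 12.01 ± 0.16 (SD, n = 18 each). This is -23.0% on the scale of intensity + 16, and by p Cth stood at rank 155 of all genes tested. In every alternative run the average stayed called, between -0.40 and -0.36, and it was -0.38 without the 4 arrays of low weight. In a bulk sample, fewer cells of a type and less RNA per cell cannot be told apart.

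Tested at each time alone, Cth was the only member to pass at any time. At ZT0 its difference was -0.43 ± 0.11 (adjusted p 0.017) and 7.12% of all genes were called. At ZT4 it was -0.41 ± 0.11 (adjusted p 0.027, background 3.69%). At ZT12 it was largest, -0.49 ± 0.11 (adjusted p 0.0060, background 5.44%), and at ZT20 it was -0.40 ± 0.11 (adjusted p 0.046, background 2.04%). At the other 2 times no member passed: Cth was -0.35 ± 0.11 at ZT8 (adjusted p 0.16, background 0.774%) and -0.17 ± 0.11 at ZT16 (adjusted p 0.53, background 2.22%), or -0.27 at ZT16 without the arrays of low weight. The number of members at an unadjusted p under 0.05 was 5 at ZT0, 4 at ZT4, 2 at ZT8, 2 at ZT12, 3 at ZT16 and 3 at ZT20. Over all genes tested the share at that level was 23.6%, 17.0%, 9.41%, 18.2%, 13.2% and 13.5% at these times. For Cth the diet by time test had an adjusted p of 0.74, so the difference was not shown to vary over the day.

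The call of Cth at ZT12 held when any array was left out, while the others rested on single arrays. At ZT0 it was lost without chow replicate 1 (-0.38), chow replicate 2 (-0.40) or high fat diet replicate 1 (-0.42). At ZT4 it was lost without chow replicate 1 (-0.38), chow replicate 2 (-0.39), high fat diet replicate 1 (-0.29) or high fat diet replicate 3 (-0.41). At ZT20 it was lost without any of 20 of the 36 arrays, most of them from other times, with differences from -0.43 to -0.31. Without the 4 arrays of low weight the differences at ZT4 and ZT20 were -0.39 and -0.36, and both calls were lost.

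**Figure D3:**
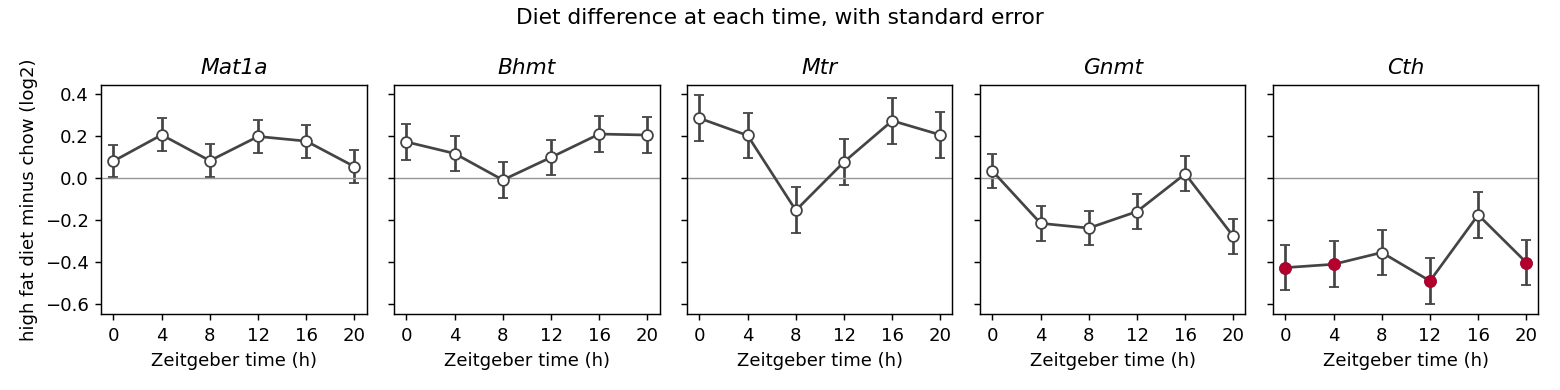
Difference (high fat diet minus chow, log2) at each Zeitgeber time in h for the 5 members called on average; bars are standard errors and filled red points have a limma adjusted p under 0.05 at that time. Cth lies below 0 throughout and passes at ZT0, ZT4, ZT12 and ZT20, whereas Mat1a stays above 0 without passing at any single time.

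The next comparison asked which members follow the time of day on each diet, by fitting a 24 h wave per diet. Cbs was the only member called, on both diets, where 20.6% of all genes were called on chow and 11.0% on high fat diet. At an unadjusted p under 0.05 stood 3 members on chow and 5 on high fat diet, and 32.8% and 22.6% of all genes tested. The median amplitude (mean to peak, log2) of the 8 members was 0.09 on chow, as for all genes tested, and 0.10 on high fat diet, against 0.08 for all genes tested.

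Cbs, cystathionine beta-synthase, joins homocysteine to serine and is the entry to transsulfuration. On chow its arrays read 11.64, 11.95 and 11.82 at ZT0, 11.80, 11.97 and 11.81 at ZT4, and 11.58, 11.57 and 11.66 at ZT8. They read 11.36, 11.46 and 11.38 at ZT12, 11.24, 11.40 and 11.04 at ZT16, and 11.31, 11.33 and 11.74 at ZT20. The means on chow thus ordered as ZT4, ZT0, ZT8, ZT20, ZT12 and ZT16, from 11.86 ± 0.10 down to 11.23 ± 0.18 (SD, n = 3). Arrays of each pair of neighbours in this order overlapped. The place of ZT20 and its overlap with ZT8 and ZT12 rested on its replicate 3, 11.74, which is among the 4 arrays of low weight. The other ZT20 arrays lay below every ZT12 array.

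On high fat diet Cbs read 11.71, 11.76 and 11.71 at ZT0, 11.53, 11.75 and 11.67 at ZT4, and 11.56, 11.47 and 11.44 at ZT8. It read 11.30, 11.19 and 11.30 at ZT12, 11.23, 11.36 and 11.15 at ZT16, and 11.63, 11.74 and 11.44 at ZT20. Here the order was ZT0, ZT4, ZT20, ZT8, ZT12 and ZT16, from 11.72 ± 0.03 to 11.25 ± 0.11 (SD, n = 3). Arrays of neighbours in this order overlapped, except that those of ZT12 and ZT16 lay below every array of the other 4 times.

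The fitted wave of Cbs on chow had an amplitude of 0.31 ± 0.04 and a peak at 3.06 ± 0.50 h (SE; limma adjusted p 2.15e-06), a peak 1.54 times the trough. On high fat diet the amplitude was 0.25 ± 0.04 and the peak lay at 1.27 ± 0.61 h (adjusted p 0.000101), 1.42 times the trough. The peak on high fat diet was estimated as earlier, with a difference (high fat diet minus chow) of -1.79 ± 0.79 h. Its unadjusted 95% interval from the delta method was -3.33 to -0.25 h, and the amplitude differed by -0.06 ± 0.06. The joint test of both wave terms between diets gave a p of 0.057 and an adjusted p of 0.61, so no difference in rhythm was called. The E-box shown above lies in the upstream window of this gene, a description with no test of its use.

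The average level of Cbs did not pass between diets: it was 11.56 ± 0.26 on chow and 11.49 ± 0.21 on high fat diet (SD over all times, n = 18 each), a difference of -0.06 ± 0.04 (adjusted p 0.31, 95% interval -0.15 to 0.02). Its chow and high fat diet arrays did not overlap at ZT4, ZT8 and ZT12, where the difference was -0.21, -0.12 and -0.14, each with an SE of 0.10. None of these passed, with adjusted p from 0.29 to 0.78. Leaving out the 4 arrays of low weight gave an average difference of -0.04 and amplitudes of 0.31 and 0.25.

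**Figure D4:**
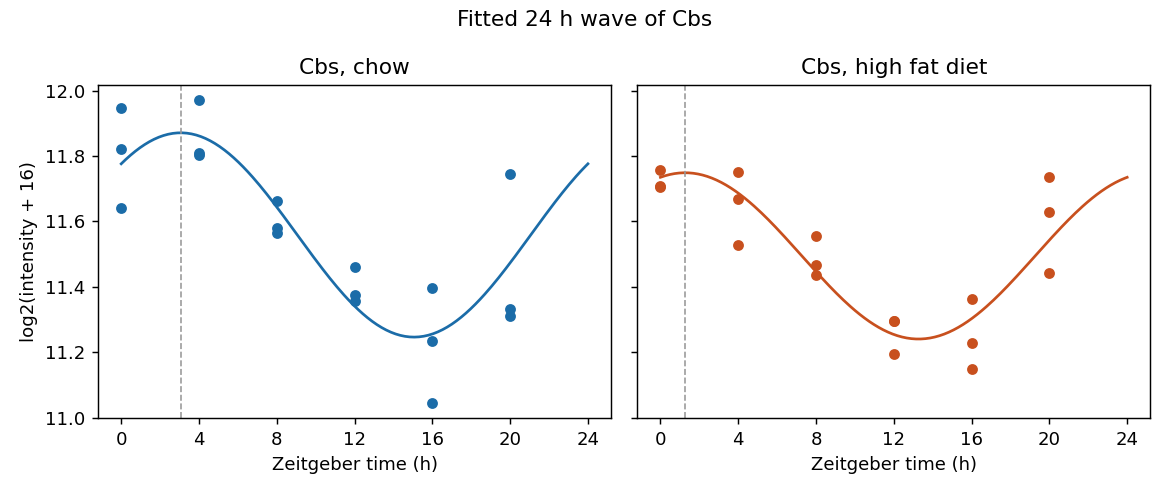
Cbs level, log2(intensity + 16), against Zeitgeber time in h, with the 24 h wave fitted on chow (left) and on high fat diet (right); points are arrays and the dashed line is the fitted peak. The fitted peak lies at 3.06 h on chow and 1.27 h on high fat diet, and both curves are lowest between ZT12 and ZT16.

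The other members had smaller fitted waves that did not pass. On chow the amplitude was 0.15 ± 0.05 for Bhmt2 (adjusted p 0.11), 0.12 ± 0.04 for Mtr (adjusted p 0.13), 0.10 ± 0.04 for Cth (adjusted p 0.23) and 0.08 ± 0.03 for Mat1a (adjusted p 0.16). On high fat diet it was 0.13 ± 0.04 for Cth (adjusted p 0.12), 0.11 ± 0.03 for Bhmt (adjusted p 0.096) and 0.10 for both Mat1a and Gnmt (adjusted p 0.11 and 0.19). Pemt was flattest, with an amplitude of 0.01 ± 0.03 on either diet. Bhmt2 on chow was called without chow ZT16 replicate 1 (amplitude 0.17) or replicate 3 (0.19), Cth on high fat diet without high fat diet ZT4 replicate 2 (0.16), and Mtr on chow without the 4 arrays of low weight (0.16). Leaving out those arrays also gave an amplitude of 0.05 for Mat1a on chow and of 0.02 for Pemt on either diet.

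No member was called for a difference in rhythm between diets (0.0287% of all genes were) or for a diet by time interaction (0.631%). At an unadjusted p under 0.05, limma gave 1 member in each test, and 8.32% and 13.4% of all genes tested. For the rhythm it was Mtr, with a p of 0.036, an amplitude of 0.12 ± 0.04 on chow and 0.06 ± 0.04 on high fat diet (0.16 and 0.04 without the arrays of low weight). For the interaction it was Gnmt, described above.

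The genes whose 12 group means were most like those of Cbs were Tmem218 (Pearson r 0.963), Washc1 (0.956) and Amdhd1 (0.946), the last an enzyme of histidine breakdown. Their fitted peaks on chow were at 2.70, 3.71 and 3.30 h, and on high fat diet at 0.92, 1.95 and 0.48 h. Their amplitudes were 0.35, 0.09 and 0.33 on chow and 0.33, 0.08 and 0.28 on high fat diet, where Cbs had 0.31 and 0.25. Unlike Cbs, Tmem218 was called as lower on high fat diet, with a difference of -0.17 ± 0.05 (limma adjusted p 0.013). Those most like Cth were Nme1 (0.958), a nucleoside diphosphate kinase, Gcat (0.957), an enzyme of threonine breakdown, and Slc13a2 (0.936), a carrier of dicarboxylates. They differed by -0.23 ± 0.06, -0.65 ± 0.05 and -1.61 ± 0.08 on average. The value of Slc13a2 depended on the offset: it was -1.96 with an offset of 1, and ran from -1.96 to -1.05 over the alternatives. These r values are descriptions over 12 means from the same arrays, the closest of all genes tested.

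The routes around the cycle were followed in 7 lists, of which 105 of 127 genes were tested. Their counts stand beside the shares over all genes tested, 11.2% higher and 9.80% lower on high fat diet, 20.6% rhythmic on chow and 11.0% rhythmic on high fat diet. On the folate side, which supplies the methyl group that MTR uses, 6 of 23 rose and 1 fell. Mmadhc, which handles vitamin B12 in the cell, rose by 0.21 ± 0.03 and Shmt1, which loads folate with a carbon from serine, by 0.20 ± 0.03, while Aldh1l1, which oxidises formyl-folate, fell by 0.21 ± 0.03 (limma adjusted p 3.55e-05, 7.32e-05 and 4.93e-05). The largest rise in this list, chosen after values were seen, was Folr2 at 0.48 ± 0.12, a folate receptor of macrophages. Mtrr, Amt, Gldc and Slc19a1 were rhythmic on both diets and Mthfd1l on chow, and without the arrays of low weight 4 genes of this list were rhythmic on chow and 5 on high fat diet.

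On the choline and betaine side, which supplies the methyl group that BHMT uses, 1 of 16 rose and 4 fell. Chdh, which oxidises choline on the way to betaine, fell by 0.17 ± 0.04 (adjusted p 0.0030). The carriers Slc6a12, which takes up betaine and GABA, and its relative Slc6a13 differed by -0.17 ± 0.04 and -0.19 ± 0.03 (adjusted p 0.0018 and 5.43e-05). All 3 were lower at 6 of 6 times. Thus Bhmt rose while Chdh and these carriers, the 3 called genes of this list with the smallest p, fell. Aldh7a1 of the same list differed by -0.06 ± 0.03 and did not pass (limma adjusted p 0.18). The median of the list was -0.02, against 0.02 for all genes tested. Chka, choline kinase, had an amplitude of 1.23 ± 0.08 on chow and 1.28 ± 0.08 on high fat diet, and 3 genes of this list were rhythmic on chow and 6 on high fat diet (4 and 5 without the arrays of low weight), where 20.6% and 11.0% of all genes were.

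Of the other methyltransferases, 2 of 10 that act on small molecules rose and 1 fell. Gamt, which makes creatine, rose by 0.16 ± 0.04 (adjusted p 0.0094), and Inmt, which methylates amines such as tryptamine, fell by 0.26 ± 0.05 (adjusted p 7.89e-05). Tpmt, which methylates thiopurines, rose by 0.17 ± 0.06, with an adjusted p of 0.040 that did not pass in 20 of 48 alternatives. Of those that act on proteins and nucleic acids, 1 of 23 rose and 7 fell. The arginine methyltransferases Prmt1 and Prmt3 differed by -0.18 ± 0.04 and -0.15 ± 0.04 (adjusted p 0.0022 and 0.0026) and the histone methyltransferase Ehmt2 fell by 0.12 ± 0.03 (adjusted p 0.0021), and the median of this list was -0.01, against 0.02 for all genes.

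In polyamine synthesis and methionine salvage, which use S-adenosylmethionine and return its sulfur, 1 of 13 rose and 2 fell. Srm, spermidine synthase, fell by 0.28 ± 0.05 (adjusted p 6.64e-05) and Sat2, an acetyltransferase related to that of spermidine, rose by 0.13 ± 0.04 (adjusted p 0.013), a call lost without the 4 arrays of low weight (0.09). Odc1, ornithine decarboxylase, fell by 0.17 ± 0.06 with an adjusted p of 0.039 that did not pass in 20 of 48 alternatives. Of the genes around adenosine and the partners of the MAT and AHCY enzymes, 2 of 6 rose and 1 fell. Adk, which removes adenosine, rose by 0.11 ± 0.02 (adjusted p 0.0011) and Nt5e, which makes it outside the cell, by 0.31 ± 0.09 (adjusted p 0.013), while Ahcyl2, a relative of Ahcy, fell by 0.31 ± 0.06 (adjusted p 0.00044).

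Below Cth, in the use of cysteine, 3 of 14 genes fell and 0 rose, where 9.80% of all genes fell and 11.2% rose. Csad, which makes the taurine precursor hypotaurine, fell by 1.72 ± 0.12, from 10.54 ± 0.52 to 8.82 ± 0.40 (SD, n = 18 each; adjusted p 9.33e-12). Ethe1, a mitochondrial sulfur dioxygenase, fell by 0.64 ± 0.05 (adjusted p 9.06e-11) and Gsr, glutathione reductase, fell by 0.29 ± 0.03 (adjusted p 1.87e-08). All 3 were lower at 6 of 6 times, as was Cth. The other 11 did not pass, and the median of the list was 0.01. Here 8 genes were rhythmic on chow and 4 on high fat diet (8 and 5 without the arrays of low weight), where 20.6% and 11.0% of all genes were. Ethe1 was among both, with peaks at 0.71 h on chow and 23.96 h on high fat diet, where Cbs peaked at 3.06 and 1.27 h.

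Without the 4 arrays of low weight, the calls by diet (higher and lower) were 6 and 2 on the folate side, 0 and 7 for protein and nucleic acid methyltransferases, 0 and 2 for polyamines and salvage, and 1 and 3 for cysteine use, and as given above for the other 3 lists. Rhythmic on chow and on high fat diet were 2 and 3 of 10 small-molecule methyltransferases (1 and 4 without these arrays). For protein and nucleic acid methyltransferases they were 5 and 2 of 23 (6 and 1). For polyamines and salvage they were 3 and 2 of 13 (4 and 3), and around adenosine 3 and 1 of 6 (3 and 1). Over all genes tested 20.6% and 11.0% were rhythmic. In none of the 7 lists was a gene called for a difference in rhythm or for an interaction. The smallest p for the rhythm difference in each list belonged to Amt (adjusted p 0.081), Gss (0.13), Chka (0.23), As3mt (0.45), Carm1 (0.50), Odc1 (0.53) and Slc29a1 (0.67). Amt, a subunit of the glycine cleavage system, had an amplitude of 0.40 ± 0.04 on chow and 0.20 ± 0.04 on high fat diet.

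**Figure D5:**
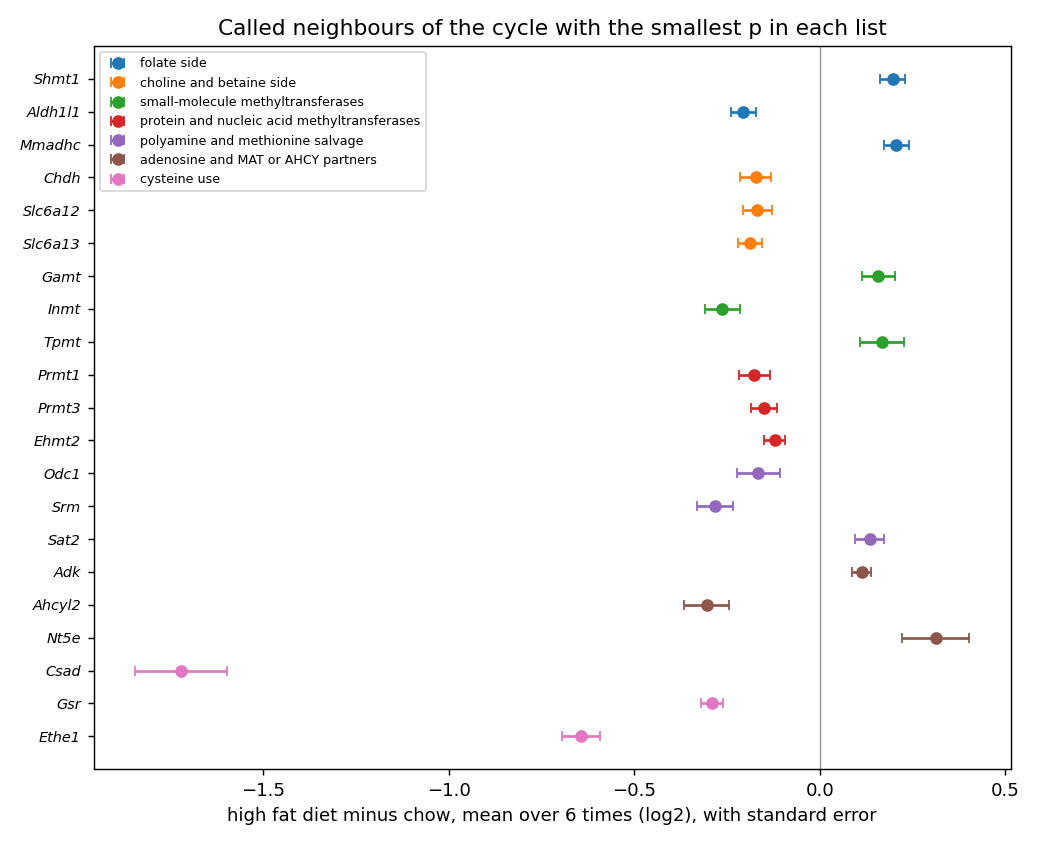
Average difference (high fat diet minus chow, log2) with standard errors for up to 3 called genes with the smallest p in each of the 7 lists around the cycle. Csad lies farthest from 0 at -1.72, the 3 genes of cysteine use and the 3 of the choline and betaine side all lie below 0, and the other lists hold genes on both sides or, for protein and nucleic acid methyltransferases, below 0.

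Markers of cell types moved with diet beside these results. Among all genes tested, 11.2% were called higher and 9.80% lower on high fat diet. Of 9 Kupffer cell and macrophage markers, 7 rose and 0 fell, with a median difference of 0.37, against 0.02 for all genes tested. Their summed intensity ran from 1801 to 4588 on chow and from 2774 to 6424 on high fat diet. Of 6 stellate cell markers 4 rose, with sums of 3871 to 6165 and 4331 to 6590. Without the 4 arrays of low weight, 5 macrophage and 2 stellate markers rose. Of 5 tested markers of T, NK and B cells 2 rose, in either fit. The 6 endothelial and 2 tested bile duct markers showed no call. The tested markers of neutrophils (S100a9) and red blood cells (Alas2) were not called, although S100a9 was called as higher without the 4 arrays of low weight, and of 2 pancreas markers Cela1 rose by 0.18 ± 0.05.

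Of 7 hepatocyte markers 0 rose and 3 fell, where 11.2% of all genes tested rose and 9.80% fell. Those lower were Tat, Cps1 and Hnf4a, with differences of -0.18 ± 0.04, -0.16 ± 0.03 and -0.13 ± 0.04. The summed intensity of the 7 was 56140 to 65299 on chow and 55984 to 63890 on high fat diet. Markers of liver zones moved both ways. Of 9 pericentral markers 4 rose, with Glul at 0.17 ± 0.04, and 1 fell, Cyp1a2 at -0.39 ± 0.07. Of 5 tested periportal markers Ctsc rose by 0.35 ± 0.06, and Hal fell by 0.30 ± 0.05 and Cyp2f2 fell by 0.25 ± 0.03. The part of cell composition or zone in the differences of the members was not tested.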

How the data were processed

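Liver RNA of 36 samples was read on Affymetrix whole-transcript arrays. The authors deposited linear intensity values of 35556 probe sets, made with Affymetrix Expression Console 1.1.1 and PLIER 2.0 per the submitters' processing notes; how background was corrected and arrays normalized is not given in the sources used here. From these, log2(intensity + 16) was computed without further scaling. Gene names are those of the platform annotation, brought up to date with RefSeq (GRCm38.p6) by gene number. Genes below the 30th percentile of mean intensity were left out. limma 3.58.1 in R 4.3.3 fitted 1 mean per diet and time (24 residual degrees of freedom) and, in a second fit, a diet mean and a 24 h wave per diet (30). A gene was called where its p, adjusted by Benjamini-Hochberg over all 13956 genes, was under 0.05. Both fits were checked on simulated data with independent noise for each gene and equal quality of all arrays. The real arrays differed in quality weight, which this check does not cover. The number of arrays limits the precision.

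Groups came from the labels. The text names every member, and in each list up to 3 called genes with the smallest p for diet and the gene with the smallest p for the rhythm difference; for the members with the largest amplitude and the largest difference, the 3 genes most alike over group means. Other genes were chosen after their values were seen. Members and lists were chosen with earlier results of these data known. Alternatives covered scaling, filter, offset, probe sets, threshold, variance prior, array weights, replicate block, rhythm model and leaving out each array.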

Additional observations from a re-analysis of the deposited data

How the results depend on the processing

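Over 48 alternatives the number of members called on average diet stayed between 4 and 6, and no result changed direction while called. Counts at single times and of rhythmic members changed as follows, with causes not tested beyond the construction of each alternative. Quantile normalization gave 2 members at ZT4, 2 at ZT12, 0 at ZT20 and 3 rhythmic on high fat diet (with Mat1a and Gnmt). With it, rhythmic genes among all tested went from 1540 to 1790 on high fat diet. Median centring gave 2 at ZT20, 2 rhythmic on chow and 2 on high fat diet. Rhythmic genes among all tested then went from 2879 to 3134 on chow and from 1540 to 1742 on high fat diet. Array quality weights gave 2 each at ZT4, ZT8, ZT16 and ZT20, 2 rhythmic on each diet and 1 with an interaction. These weights moved average diet calls over all genes from 2937 to 4259 and interactions from 88 to 1862. Rhythmic genes went from 2879 to 4459 on chow and from 1540 to 2161 on high fat diet. Counts over all genes are not given for single times in any alternative, nor for the runs that follow in this paragraph. An offset of 1, or no intensity filter, gave 0 at ZT20. At an adjusted p under 0.01, 0 were called at ZT0, ZT4 and ZT20. Without the 4 arrays of low weight, chosen after seeing the data, 0 were called at ZT4 and ZT20 and 2 were rhythmic on chow. Leaving out 1 array in turn gave 0 to 1 at ZT0, ZT4 and ZT20, and 1 to 2 rhythmic on either diet. Without chow ZT16 replicate 1 or 3, 2 were rhythmic on chow, and without high fat diet ZT4 replicate 2, 2 on high fat diet.

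The labels number replicates 1 to 3 in each group, and the main fits did not use these numbers to pair the samples. Deviations from group means correlated at a mean r of 0.012 for same-numbered pairs of arrays and -0.006 for other pairs. Of 198 same-numbered pairs 75 had an r above 0.1, a share not counted for other pairs. With the replicate number as a block, 5 members were called on average as without it, and 2952 genes in place of 2937.

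The number of arrays limits the precision, above all at single times with 3 arrays per group; all 8 measured members lay above the intensity filter.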
